A study of Drosophila melanogaster with 3 samples.

Results

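The sites described here are ORC2 peaks that lay close together in the genome of S2-DRSC cells. The list of peaks called in both samples was sorted along chromosome arms 2L, 2R, 3L, 3R and X. Neighbours less than 5000 bp apart, from the end of one to the start of the next, were chained, and chains of 3 or more peaks are called clusters. Peaks of 500 bp or wider were left out after chaining. This left 1280 cluster peaks of the 4230 peaks in the list, and they were set against the other 2491 peaks under 500 bp on these arms. There were 377 clusters, and 2 of them kept no peak under the width limit. Positions and widths chose the members, so the counts, spans and gaps below describe the choice and carry no test.

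The samples came from asynchronous cultures of S2-DRSC, an established line of male cells from late embryos of Drosophila melanogaster. Cross-linked chromatin was precipitated with a crude rabbit polyclonal serum raised against full-length ORC2, and the DNA was sequenced (ChIP-seq). There were 2 ORC2 samples, each from an extraction of its own and called replicate 1 and replicate 2, and 1 input DNA sample, which was not analysed here. The series has no treated or mutant group. The labels do not say whether the extractions were separate cultures, so the difference between replicates may be technical. Read depth is unknown, since no counts come with the positions and scores of the peaks.

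ORC2 belongs to the origin recognition complex, which binds DNA and loads the replicative helicase before S phase. In metazoans the complex has no strict sequence requirement, and it is known to occupy open chromatin, often near the promoters of active genes. Replication initiation zones in Drosophila can hold several neighbouring binding sites, among which a cell may use few in any one cycle. These are background statements, and the lists measure binding and not the use of origins. Coordinates are those of FlyBase release 5, as the files give them. Genes and base sequences at the peaks are not described, because no genome or annotation of that release was used here.

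Most clusters were small. Of the 377 clusters, 197 had 3 peaks, 95 had 4 and 43 had 5, so that 335 held 3 to 5 peaks. The other 42 clusters, of 6 peaks and up, accounted for 323 of the 1509 clustered peaks, broad ones included. The largest had 15. The median span, from the first base of the first peak to the last base of the last, was 5278 bp, with an interquartile range of 3395 to 7715 bp and extremes of 924 and 35494 bp. Together the clusters spanned 2.33 Mb, which is 1.96% of the arms as measured to their last peak, and held 36.3% of the peaks on them (exact binomial 95% interval 34.8 to 37.7%). The peaks themselves covered a median of 19.1% of a cluster's span.

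**Figure D1:**
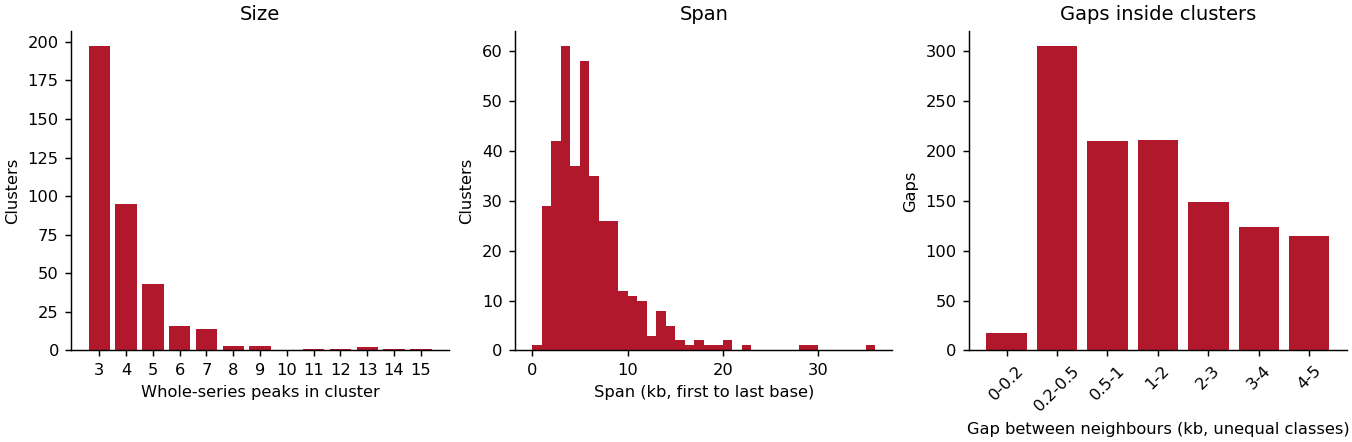
Number of clusters by peak count (left) and by span in kb (middle), and number of gaps between neighbouring clustered peaks by gap class in kb (right, classes of unequal width); bars are counts from the whole-series list. Clusters of 3 peaks make up 197 of 377, and 533 of 1132 gaps are under 1 kb.

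Gaps inside clusters were mostly far below the limit of the rule. Their median was 1111 bp, and 533 of 1132 (47.1%) were under 1000 bp. The class from 200 to 500 bp alone held 305 gaps (26.9%), whereas 115 (10.2%) lay between 4000 and 5000 bp. Neither replicate's own list had neighbouring peaks with less than 200 bp between them, and the whole-series list had 18 such gaps inside clusters, the shortest of 137 bp. When peaks less than 1000 bp apart were counted as 1, an alternative chosen after seeing the data, 171 clusters of 3 or more were left. Many clusters thus hold groups of peaks within 1 kb, and whether such peaks are separate binding sites or parts of 1 enriched stretch cannot be told from the lists.

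Peaks on either side of the limits of the rule scored between 1.69 and 6.24. The 3 widest gaps still chained were 4996, 4992 and 4971 bp, before peaks scoring 6.24, 3.71 and 4.24. The 3 narrowest gaps not chained were 5004, 5009 and 5027 bp, before peaks scoring 3.35, 4.44 and 4.82. The first of the 3 inside closed a chain of 2 peaks, and so gave no member. The widest members measured 499, 496 and 495 bp (scores 2.01, 4.15 and 3.28), and the narrowest clustered peaks left out measured 502, 503 and 504 bp (scores 4.26, 3.02 and 1.69). Chains just short of a cluster were common: 960 peaks lay in pairs, and 1693 had no neighbour within the limit.

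Clusters were found along all 5 arms at similar densities. There were 76 on 2L (3.31 per Mb), 67 on 2R (3.17 per Mb), 70 on 3L (2.85 per Mb), 94 on 3R (3.37 per Mb) and 70 on X (3.12 per Mb). The share of an arm's peaks lying in clusters was between 34.1% on 2R and 39.3% on X, and the median span between 4999.5 bp on 3L and 5801 bp on X. Members numbered 235 on 2L, 233 on 2R, 236 on 3L, 329 on 3R and 247 on X. No copy number of the arms was available, and densities use the last peak of any list as the arm's end.

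Along an arm the spacing of clusters was uneven. The median distance to the next cluster was 207 kb (interquartile range 52.2 to 424 kb), yet 42 of 372 distances (11.3%) were under 20 kb. Of 121 windows of 1 Mb, 10 had no cluster, and the median window had 3. The fullest was X, 13000001 to 14000000, with 9 clusters. Windows with 8 were at the start of 2L (1 to 1000000), on 3R (25000001 to 26000000) and on X (19000001 to 20000000). The longest stretches without a cluster were 2L, 17389433 to 19157922 (1768 kb, with 41 peaks), 3L, 22818316 to 24530460 (1712 kb, 14 peaks), 2R, 1 to 1579232 (1579 kb, 10 peaks), X, 1 to 1372505 (1373 kb, 14 peaks), and 3L, 21477281 to 22815639 (1338 kb, 18 peaks). The stretch on 2R and the longer one on 3L reached the end of the arm next to the centromere, and the 20% of each arm at that end held 6 and 5 clusters, with 21.3% and 20.2% of its peaks clustered. The other arms did not all share this: the same end held 15 clusters on 2L (36.2% of peaks clustered), 14 on 3R (24.1%) and 16 on X (43.7%). The stretch on 2L held the most peaks of the 5, and these lay singly or in 6 pairs.

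The 2 clusters with most peaks were on X. The largest, at X, 12627802 to 12650781, had 15 peaks over 23.0 kb, of which 8 were 500 bp or wider. Its span held 19 peaks of the replicate 1 list and 18 of the replicate 2 list, counting also those found in 1 replicate only. Its 7 members had a median score of 3.09 in replicate 1 and 4.33 in replicate 2, where the score is the number the authors' peak caller wrote for each peak, on a scale that is not stated. Scores were not level along it: its first peak, at 12627802, scored 1.68 and 1.92 in replicates 1 and 2, and its last, at 12650391, scored 4.54 and 7.10. They did not rise steadily, since the peak at 12628442 scored 4.67 and 5.39, and the one at 12638004 scored 2.63 and 1.71. Another cluster, of 6 peaks at X, 12610009 to 12622402, ended 5.40 kb before the largest one, just beyond the limit for chaining. A further X cluster with 11 peaks over 20.4 kb, at 12543596 to 12563978, ended 63.8 kb before it. There the highest members, at 12547734 and 12548290, scored 8.32 and 6.05 in replicate 1 and 3.69 and 5.997 in replicate 2, so that the replicates disagreed on which was the stronger.

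The cluster at X, 8781526 to 8801226, held 14 peaks over 19.7 kb, and 11 of them were members. The members scored between 2.08 and 4.51, with medians of 2.79 in replicate 1 and 3.36 in replicate 2. On 3R, 13 peaks lay between 12057021 and 12086869 (29.8 kb), and the strongest stood near the far end: the peak at 12086151 scored 6.58 in replicate 1 and 10.5 in replicate 2, with a neighbour 315 bp away at 5.02 and 4.72. The longest cluster, at 3L, 8666001 to 8701494 (35.5 kb), also had 13 peaks, and its 7 members scored low, with medians of 2.61 and 2.62. On 2L, 12 peaks between 479148 and 499515 (20.4 kb) scored 1.98 to 3.21 in the whole-series list apart from 1, at 490159, which scored 7.41 in replicate 1 and 7.33 in replicate 2.

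**Figure D2:**
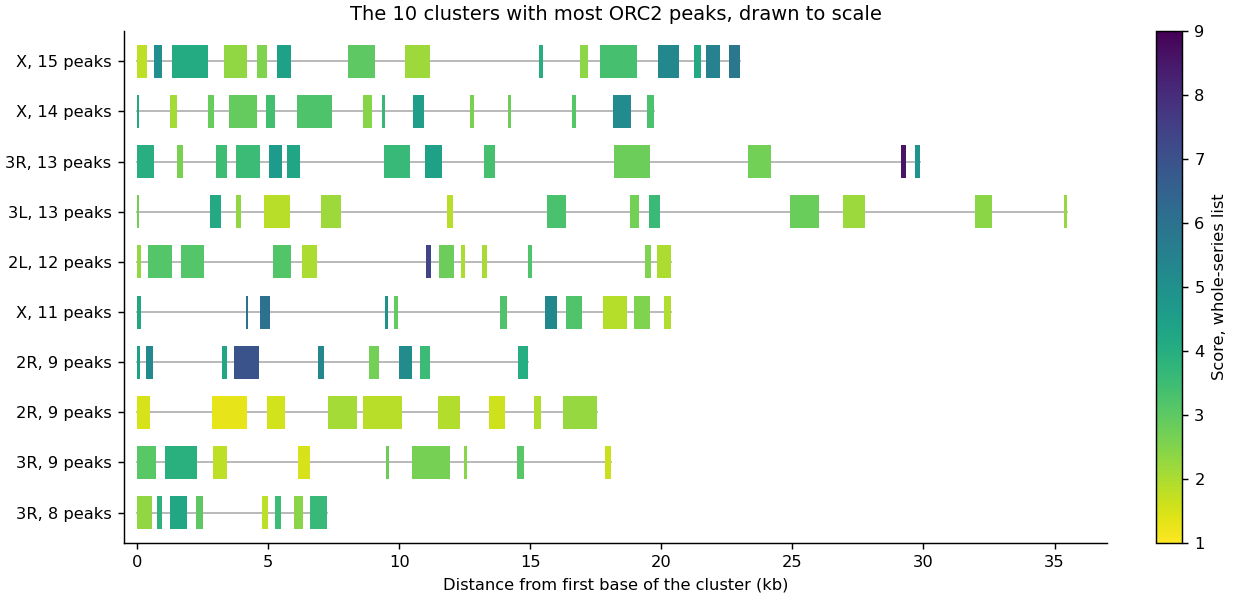
The 10 clusters with most peaks, each on a line from its first base (x axis, kb); boxes are peaks drawn to scale, coloured by whole-series score, with broad peaks included. Wide low-scoring boxes fill the 2R cluster of 9 peaks whose scores lie between 1.31 and 2.26. The 3R cluster of 13 peaks has a narrow peak of score 8.54 next to its last one.

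Among the next in size, 2 clusters on 2R had 9 peaks each and differed in character. The one at 9841150 to 9856051 (14.9 kb) had 7 members with median scores of 4.14 in replicate 1 and 3.81 in replicate 2. The other, at 6968666 to 6986210 (17.5 kb), consisted mostly of broad peaks, and its 2 members had median scores of 1.67 and 1.79, the lowest of any cluster. A 3R cluster of 9 peaks at 25597328 to 25615396 (18.1 kb) and one of 8 peaks at 8836538 to 8843776 (7.24 kb) completed the 10, with member medians of 2.12 and 2.70 and of 3.05 and 2.94 in replicates 1 and 2. The cluster at 3L, 627884 to 656652 (28.8 kb), ranking 3 by length, had 7 peaks and no member, since all of them were 500 bp or wider. There were 2 clusters without a member.

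The shortest clusters were triplets within about 1 kb. They lay at 2R, 11015500 to 11016423 (924 bp), 3R, 20701761 to 20702817 (1057 bp), 3L, 11825574 to 11826749 (1176 bp), 2R, 13307868 to 13309050 (1183 bp), and 3R, 1510365 to 1511615 (1251 bp). Each was seen as 3 separate peaks in replicate 1 and as 3 in replicate 2. Their member medians in the whole-series list were 4.28, 5.36, 3.45, 3.59 and 3.28, against 3.59 over all members.

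Clusters with the highest member medians were likewise triplets, and high medians rested on few peaks. The one at X, 17714345 to 17721706, had a member median of 9.47 (7.25 in replicate 1 and 11.7 in replicate 2) from 2 members. Next came 2R, 8056079 to 8061398, with a member median of 8.33 (7.07 in replicate 1 and 9.60 in replicate 2), also from 2 members. The triplet at 2R, 1579233 to 1585413, reached 7.50, from medians of 4.67 in replicate 1 and 10.3 in replicate 2, more than 2-fold apart. At X, 4317923 to 4321159, the member median was 7.44 (replicates 6.33 and 8.55), and at 3R, 2733913 to 2738724, it was 7.22 (replicates 6.94 and 7.50). Replicate 2 was the higher in all 5.

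Clustered peaks were wider than the other peaks under 500 bp. The median width was 203 bp for members (interquartile range 132 to 297 bp) and 166 bp for the others (120 to 250 bp), a difference of 37 bp. In replicate 1 the touching peaks spanned a median of 147 bp for members and 129 bp for the others, and in replicate 2 162.5 bp and 139 bp. The difference averaged 20.75 bp ± 3.89 (SD, n = 2 replicates). Between replicate 2 and replicate 1 the median rose by 15.5 bp for the members themselves and by 10 bp for the others. In the whole-series list the difference had the same sign on all 5 arms, from 24 bp on 3R to 50 bp on 2R. With chains built from the replicate 1 list alone it was 14 bp, and 8 bp with replicate 2 alone. Over 2 replicates an exact two-sided sign-flip test of such a difference cannot go below p = 0.5, and the same replicates chose the members, so this and the following differences are given without a test.

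Width went up with the size of the chain. Peaks under 500 bp standing alone had a median width of 165 bp, those in pairs 169 bp, those in chains of 3, 4 and 5 183.5, 206 and 210 bp, those in chains of 6 or 7 216 bp and those in chains of 8 or more 220 bp. Medians in replicate 1 ran from 127 bp to 178 bp and in replicate 2 from 138 bp to 188 bp over the same classes, with 1 small step back, to 165 bp in chains of 5 after 167 bp in chains of 4. Broad peaks followed the same order: 5.26% of lone peaks, 11.7% of peaks in chains of 3 and 40.3% of peaks in chains of 8 or more were 500 bp or wider. The last class was small, with 129 peaks in 12 clusters. Of all 391 broad peaks on the arms, 229 lay in clusters (58.6%, interval 53.5 to 63.5%), against 33.9% of the narrower ones (32.4 to 35.5%). These intervals treat peaks as independent, although 43 clusters held 2 or more broad peaks, so they are no test of the difference. A wider peak leaves a shorter gap beside it. With neighbours chained by the distance between their centres instead, an alternative added after seeing the data, there were 369 clusters, with 53.5% of broad and 32.8% of narrower peaks in them, and the median widths were 202 bp for members and 167 bp for the others.

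**Figure D3:**
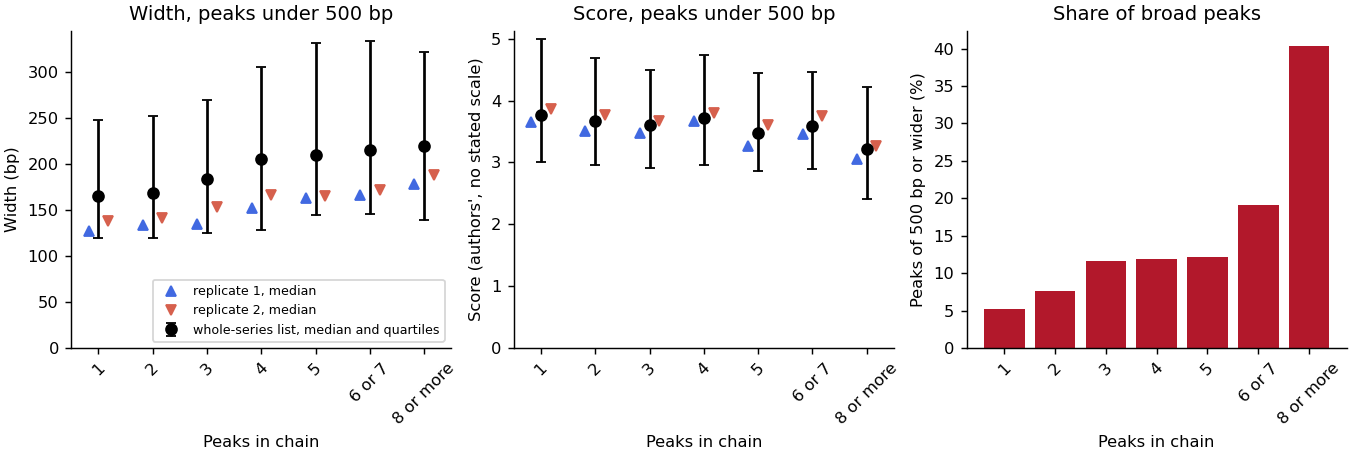
Median width in bp (left) and median score (middle) of peaks under 500 bp by the number of peaks in their chain, with bars from the lower to the upper quartile of the whole-series list and triangles for each replicate's median; the right panel gives the percent of peaks of 500 bp or wider. Median width goes from 165 bp for lone peaks to 220 bp in chains of 8 or more, and broad peaks from 5.26% to 40.3%.

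Scores of clustered peaks were slightly lower. The median was 3.59 for members (interquartile range 2.89 to 4.53) and 3.74 for the others (2.99 to 4.85). In replicate 1 the medians were 3.46 for members and 3.59 for the others, and in replicate 2 3.67 and 3.83. The difference averaged -0.14 ± 0.03 (SD, n = 2 replicates). This is smaller than the 0.204 by which the members' median in replicate 2 exceeded that in replicate 1. The others shared that shift (0.24), and members were lower within each replicate. The interquartile ranges of members and others overlapped over most of their length. The difference did not hold everywhere. On 2R members were higher by 0.05, whereas on 3L they were lower, at 3.34 against 3.68. Members were lower in 3 of 5 width classes, most among peaks of 100 to under 150 bp (3.49 against 3.87), about level at 150 to under 200 bp (3.79 in each), and higher by 0.06 at 300 to under 500 bp. Among the 50% of peaks with the highest scores, chained anew, members were higher by 0.16.

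Shares of members departed most from the 33.9% over all these peaks at the ends of the score range. When the peaks under 500 bp were split by score into 10 bins of equal size, 93 of 378 peaks in the highest bin, with scores above 6.39, were members (24.6%), and 164 of 377 in the lowest bin (43.5%). In the 8 bins between them the share was 32.6 to 35.3%. Of the 100 highest scores, 18 were members (18%, exact binomial interval 11.03 to 26.9%), and of the 100 lowest, 49 (49%, 38.9 to 59.2%). Peaks of 1 cluster are not independent, so these intervals are no test. Ranked by replicate 1 alone these counts were 21 and 40, and by replicate 2 alone 21 and 47. Chains of 8 or more had the lowest median, 3.21 (3.05 in replicate 1 and 3.26 in replicate 2), against 3.77 for lone peaks (3.65 and 3.86). The class of 8 or more held 77 peaks under 500 bp, from 12 clusters. Between these ends the fall was not steady. Medians were 3.67 in pairs, 3.60, 3.72 and 3.48 in chains of 3, 4 and 5, and 3.58 in chains of 6 or 7.

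**Figure D4:**
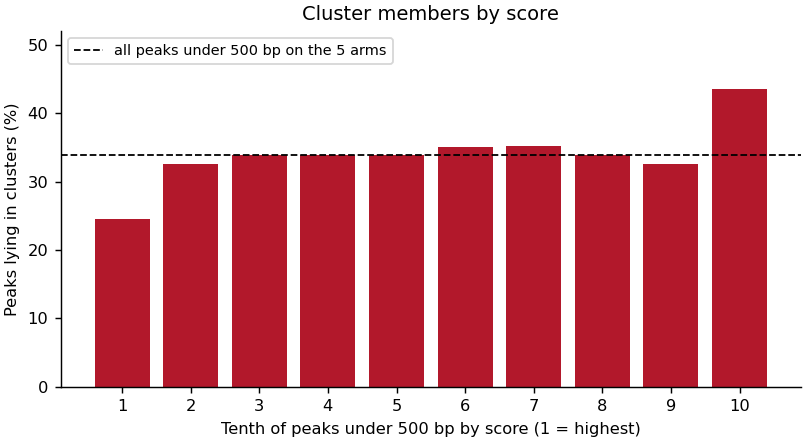
Percent of peaks that lie in clusters (y axis) in each of 10 bins of equal size of the peaks under 500 bp on the 5 arms, ordered from the highest score to the lowest (x axis); the dashed line is the 33.9% over all of them. The first bin stands at 24.6% and the last at 43.5%.

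A few members were nevertheless among the strongest ORC2 sites of the arms. The highest, at 3L, 19900561 to 19900674, scored 20.2 in replicate 1 and 17.5 in replicate 2, ranking 3 and 8 among peaks under 500 bp, and the next highest of its cluster of 5 scored 5.08. The peak at 3R, 20105180 to 20105329, scored 13.8 and 18.6, and the next highest of its cluster of 4 scored 3.33. The peak at X, 7954962 to 7955270, in the middle of a cluster of 5, scored 15.3 and 16.6, with a neighbour 217 bp away. At 3R, 5934903 to 5935166, the scores were 15.7 and 12.1, and at 2L, 8690487 to 8690664, 13.2 and 14.0. Strong peaks thus stood beside weaker ones, with 3.33 to 7.89 for the next highest in these 5 clusters.

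The other 5 of the 10 highest members all scored higher in replicate 2. The peak at X, 17714345 to 17714481, scored 11.2 in replicate 1 and 15.8 in replicate 2, and the one at 2R, 1585335 to 1585413, a site of 79 bp, scored 9.33 and 14.6. At 2L, 6971849 to 6972002, the scores were 9.56 in replicate 1 and 14.1 in replicate 2. The peak at X, 9578837 to 9579221, scored 8.92 and 13.2, and the one at 2R, 8060479 to 8060632, was nearly level at 10.5 and 10.7. Their ranks ran from 39 to 95 in replicate 1 and from 16 to 87 in replicate 2. Among these 10 peaks the lowest score elsewhere in the same cluster lay between 2.17 and 5.54.

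Scores varied more within clusters than between them. In the 364 clusters with 2 or more members, the highest member scored a median of 1.68 times the lowest, and more than 2 times in 108 clusters (29.7%). The median ratio was 1.69 in replicate 1 and 1.82 in replicate 2. On the log2 scale, the SD within a cluster was 0.47 and the SD between clusters 0.23, so that 19.1% of the variance lay between clusters (19.99% in replicate 1 and 15.9% in replicate 2). Of the variance in log2 width, 7.68% lay between clusters. Neighbours under 500 bp wide and less than 1000 bp apart differed by a median of 0.42 in log2 score, against 0.43 for neighbours from 5000 to under 10000 bp apart and 0.48 for those 50 kb or more apart. Close neighbours were thus only a little more alike in score than distant ones.

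Median scores showed no consistent relation to position within a cluster. Inner members had a median score of 3.603 and end members 3.577, with 3.49 and 3.45 in replicate 1 and 3.65 and 3.68 in replicate 2, so the sign differed between replicates. Inner members had a median width of 208 bp and end members 194 bp, and 17.7% of inner against 12.6% of end peaks were broad. The highest peak of a cluster, broad ones included, was an inner one in 186 of 377 clusters (49.3%), where inner places made up an average of 44.9% of a cluster. The same peak was the highest in both replicates in 266 of 377 clusters (70.6%, exact binomial interval 65.7 to 75.1%), and in 144 of the 197 clusters of 3. In the other 111 clusters the replicates named different peaks. Were each peak of a cluster equally likely to be the highest, the mean share with the same peak would be 27.5%.

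All members were found in both replicates by the way the list was made, so agreement was read from their scores and extents. For the 1271 members that matched 1 peak in each replicate, 1146 pairs of scores (90.2%, exact binomial interval 88.4 to 91.7%) were within 1.5-fold of each other, against 2166 of 2476 for the others (87.5%, 86.1 to 88.8%). The intervals treat peaks as independent and are no test of the difference. Pairs more than 2-fold apart numbered 10 among members (0.787%) and 28 among the others (1.13%). The SD of log2(replicate 2 / replicate 1) was 0.33 for members and 0.37 for the others, with a median of 0.10 for members and 0.11 for the others. Agreement fell with score, and the share within 1.5-fold was 94.8% of members and 91.5% of others in the lowest of 3 bins of equal size by score, and 85.0% and 82.5% in the highest. The members' share was the higher in each bin and in all 5 width classes, but not at every size of cluster. It was 86.7% for lone peaks, 88.9% in pairs, 89.96%, 91.0% and 93.0% in chains of 3, 4 and 5, 85.9% in chains of 6 or 7 and 89.6% in chains of 8 or more. Both replicates may share the input as a control, and the part of that in the agreement was not tested.

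Extents agreed to a similar degree in clusters and elsewhere. The length shared by both replicates was a median of 65.2% of their joint length for members and 66.2% for the others. Replicate 2 scored higher in 62.3% of members and 60.9% of others. Peaks of 1 cluster did not shift together between replicates to any great extent, since 5.29% of the variance of log2(replicate 2 / replicate 1) lay between clusters. Spearman's rho between the replicates' scores was 0.782 over the 1271 member pairs and 0.764 over the 2476 other pairs, as a description across peaks of the same 2 libraries.

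Peaks called in 1 replicate alone played no part in choosing the clusters, and they were denser in and around them. Between the peaks of clusters there were 150 peaks found once in replicate 1, or 80.7 per Mb, and 218 in replicate 2, or 117 per Mb. Within 5 kb of a cluster there were 47.2 and 70.6 per Mb, and in the rest of the arms 17.8 and 21.5 per Mb. Inside clusters the density was 4.54 times that of the rest in replicate 1 and 5.45 times in replicate 2 (mean 4.99 ± 0.643, SD, n = 2). The order held on each of the 5 arms in both replicates: the lowest density inside clusters was 56.9 per Mb (2R, replicate 1), and the highest in the rest of the arms was 24.2 per Mb (X, replicate 2). These zones were chosen with the data already seen, and how well short reads map in them was not examined.

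Peaks found once between cluster peaks had a median width of 71 bp and a median score of 2.78 in replicate 1, against 48 bp and 3.18 in the rest of the arms, and 69 bp and 2.83 in replicate 2, against 54 bp and 3.41. Those within 5 kb of a cluster had medians of 58 bp and 2.86 in replicate 1 and 66.5 bp and 2.81 in replicate 2, so wider extents and lower scores were not confined to the spans. Lone peaks had such company too, to a lesser degree. The 5 kb on either side of a cluster held 47.5 per Mb in replicate 1 and 70.3 in replicate 2, those beside pairs 36.5 and 54.6, and those beside lone peaks 36.2 and 46.1, counting each flank in full where flanks overlap. At least 1 peak found once lay in these flanks at 37.7% of clusters in replicate 1 and 49.6% in replicate 2, against 28.6% and 34.9% of lone peaks.

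**Figure D5:**
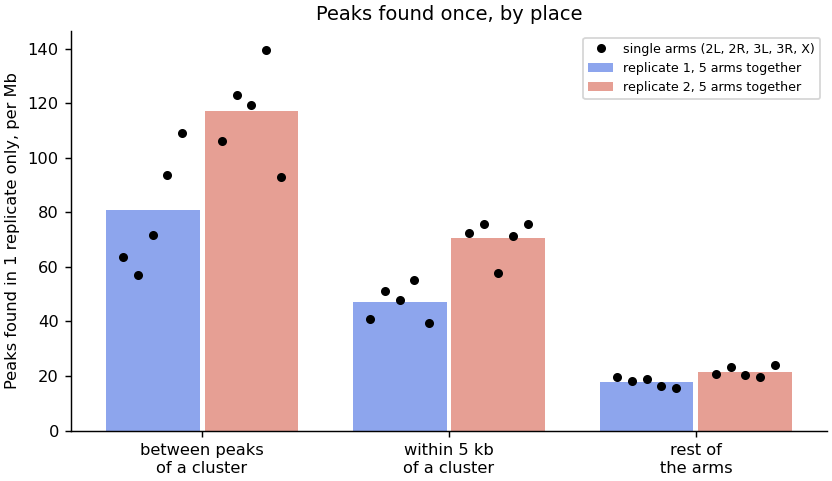
Peaks found in 1 replicate only, per Mb of sequence outside whole-series peaks (y axis), between the peaks of clusters, within 5 kb of a cluster and in the rest of the 5 arms (x axis); bars are all arms together for each replicate and points are single arms in the order 2L, 2R, 3L, 3R and X. Densities between cluster peaks are 80.7 and 117 per Mb, and in the rest of the arms 17.8 and 21.5 per Mb.

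The share of each replicate's peaks that the other replicate touched was higher inside cluster spans than outside them. It was 91.2% in replicate 1 (1547 of 1697) and 87.55% in replicate 2 (1533 of 1751), against 55.2% (2681 of 4853) and 50.04% (2684 of 5364) outside. Spans begin and end with peaks found in both, so these shares are raised by construction. Clusters built from a single list are not tied to the other list in this way. In clusters of the replicate 1 list, 70.3% of peaks (2115 of 3009, exact binomial interval 68.6 to 71.9%) were touched by replicate 2, against 59.7% of its other peaks (58.0 to 61.3%). In clusters of the replicate 2 list, 62.5% (60.9 to 64.1%) were touched by replicate 1, against 56.0% (54.3 to 57.7%). Here too the intervals treat peaks as independent. Within classes of width the differences were smaller and did not keep their sign. For peaks under 50 bp the shares were 25.05% in clusters and 19.3% outside in replicate 1, and 18.2% and 15.9% in replicate 2. For peaks of 100 to under 200 bp the shares were 87.0% in clusters and 85.9% outside in replicate 1, and 76.7% and 79.2% in replicate 2. Peaks in clusters were also touched less often from 200 to under 400 bp in both replicates (91.8% against 93.2%, and 87.7% against 90.9%) and from 400 bp up in replicate 2 (95.9% against 97.8%), so the share was lower in clusters in 4 of the 10 classes over both replicates.

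Single lists gave more clusters than the list of shared peaks. Replicate 1 alone had 695 clusters with up to 27 peaks and replicate 2 had 791, also with up to 27, at median spans of 5233 and 5155 bp. All 377 whole-series clusters touched a cluster of each single list, which the rule nearly guarantees, since every shared peak is made from peaks of both. A further 320 clusters in replicate 1 and 419 in replicate 2 touched no whole-series cluster, and 227 and 270 of these had 3 peaks, the least possible. Of the replicate 1 clusters 518 (74.5%) touched a cluster of replicate 2, and of the replicate 2 clusters 514 (65.0%) touched one of replicate 1. The number of peaks in a whole-series cluster was matched by the single list in 149 cases in replicate 1 and 120 in replicate 2.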

How the data were processed

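Positions refer to FlyBase release 5 and the caller was PeakSeq, per the file headers. The score, 1 per peak, is the authors' deposited value on a scale that is not stated; the aligner, control and calling threshold were, likewise, not given in the sources used here. Names of peaks hold the replicate's number, so calling was done for each sample. On the 5 arms, all 4162 whole-series peaks matched, edge to edge, the union of touching replicate peaks. For all 4047 made from 1 peak of each replicate, the score was the mean of both (tolerance 1e-05).

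A gap was the number of bases between neighbouring peaks, and overlap meant at least 1 bp in common. A replicate's width and score at a site were the extent and mean score of its touching peaks. Shares have exact binomial 95% intervals, which cover the counting of peaks only; peaks of 1 cluster are not independent. No test is given: the same 2 samples chose the members, an exact sign-flip test over them cannot go below p = 0.5 (two-sided), and resampling peaks was not used. Chaining and overlap were tested on simulated data.

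Named regions were the 10 clusters with most peaks (ties by shorter span), the 5 longest, the 5 shortest and the 5 with the highest member median, the 10 highest members and the 5 longest stretches without a cluster. The cluster with the lowest median was named after its value was seen. Members, lists and rules were chosen with earlier results of these data known. Gene and sequence comparisons were not run, because the gene table used here is of release 6. Tools were Python 3.11.15, numpy 2.4.6, pandas 2.3.3 and scipy 1.17.1, with figures by matplotlib 3.10.9.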

Additional observations from a re-analysis of the deposited data

How the results depend on the processing

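The number of clusters, 377, depended on the rule: it was 216 with gaps under 2000 bp, 857 with chains of 2 or more, 180 with chains of 4 or more, 95 with the highest-scoring 50% of peaks, 171 with peaks less than 1000 bp apart merged first, and 695 to 791 with a replicate left out. The lists of a single replicate were longer, with 6550 and 7115 peaks on the arms against 4162. The median span of 5278 bp was 2732 bp with gaps under 2000 bp, 9895 bp under 10000 bp, 2971 bp with chains of 2 or more, 7236 bp with 4 or more, 5104 bp with broad peaks dropped before chaining, 4840 bp with the highest-scoring 50%, and 5155 to 5233 bp with a replicate left out. Members were wider in each setting run: the difference of 37 bp was 42 bp with gaps under 2000 bp, 27.5 bp under 10000 bp, 20 bp with chains of 2 or more, 41 bp with 4 or more, 59 bp with no width limit, 29 bp with broad peaks dropped first, and 8 to 14 bp with a replicate left out. The score difference of -0.16 turned to 0.16 with the highest-scoring 50%, and the cause was not tested; it was -0.21 with gaps under 10000 bp, -0.13 with broad peaks dropped first, and -0.27 to -0.14 with a replicate left out. Members' share of scores within 1.5-fold, 2.69 percentage points above the others', stayed above in all 8 alternatives run; with a replicate left out it has no value. The share of peaks touched was 35.9 and 37.5 percentage points higher in cluster spans in replicates 1 and 2; this was 23.2 and 25.02 when at least 50% of both peaks had to overlap, 30.7 and 32.96 with centres within 500 bp, and 10.6 and 6.46 with clusters of the same list alone. The ratio of 4.99 for peaks found once was 6.69 with gaps under 2000 bp, 4.24 under 10000 bp, and 4.54 to 5.45 with a replicate left out. No paired analysis was possible because no second group of samples was analysed to pair by number; members and other peaks were compared within each replicate. Chaining by centres changed none of the 3 values computed with it (369 clusters, 35 bp and -0.16) beyond the spread between replicates or 1.5-fold for the count. Start sites and genes were not run for want of a release 5 annotation. Without counts, depth cannot be weighed.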
